A study of Mus musculus with 3 samples.

Results

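The ligands and receptors of the vascular endothelial growth factor (Vegf) and platelet-derived growth factor (Pdgf) families were measured in EpH4-PR cells on 3 Agilent whole mouse genome arrays. The set was every non-control probe that the array design names Vegfa, Vegfb, Vegfc, Pdgfa, Pdgfb, Pdgfc, Pdgfra, Pdgfrb, Flt1 or Kdr, which gave 21 probes of 10 genes out of 41174 probes in all. EpH4-PR is a mouse mammary epithelial line that was stably transfected with PR-A, the shorter isoform of the progesterone receptor, and selected as clones. The cells were grown in medium with 10% FBS to about 75% confluence with no hormone named in the labels, and their total RNA was labelled with Cy5. A commercial mouse RNA, labelled Stratagene mouse standard, was labelled with Cy3 and hybridised to each of the same arrays as a common reference. The make-up of that reference is not given in the sources used here. The dyes were not swapped, so a dye effect and a difference between the RNAs cannot be told apart. EpH4-EV arrays, from cells with the empty vector, were not analysed here, so each ratio below sets EpH4-PR RNA against the reference RNA and does not measure an effect of the receptor. The sources do not say whether the 3 arrays came from separate cultures, and p-values then measure only the spread between these arrays, which may be technical.

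Vegf ligands are secreted dimers that bind receptor tyrosine kinases, chiefly on endothelial cells, and drive the growth and permeability of blood and lymphatic vessels. Pdgf ligands bind a related pair of receptor tyrosine kinases, found mainly on fibroblasts and on the mural cells that wrap vessels. In the mammary gland, epithelial cells are a known source of both kinds of ligand, while the receptors are known mainly from the stroma and the vessels around them.

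Most ligand probes lay above the reference (11 of 13 had a log2 ratio above 0) and most receptor probes below it (6 of 8 below 0), with undetected probes counted in both. The ligand probes of Vegfb and Pdgfc and Vegfa A_52_P249424 lay above 0 by only 0.18 or less. Probes were called where limma, with Benjamini-Hochberg adjustment over all 41174 probes, gave an adjusted p under 0.05 and the log2 ratio of Cy5 over Cy3 was at least 1 in either direction. Of the 13 ligand probes, 3 were called higher in EpH4-PR RNA, both probes of Pdgfa and a probe of Pdgfb, and 0 were called lower. Of the 8 receptor probes, 0 were called higher and 3 were called lower, a probe each of Pdgfra, Pdgfrb and Flt1. Over all probes on the arrays, 2.26% were called higher and 3.83% lower, or 6.1% in either direction, against 6 of the 21 probes here. Where both channels were well above background on each array, 3.48% of probes were called higher and 5.67% lower, and 17 of the 21 probes here, all 6 called ones among them, were of that kind. At an adjusted p under 0.05 of any size, 15 of the 21 probes passed, against 50.3% of all probes, so that passing this looser limit was common on these arrays. The median log2 ratio was 0.16 over the ligand probes and -0.86 over the receptor probes, against -0.01 over all probes. These medians describe the probes that the array carries and were not tested as a set. Flt1 holds 4 of the 8 receptor probes. The receptor median fell between Flt1 A_52_P307922 (-0.79) and A_52_P520859 (-0.92), which were not well above background in Cy5 on any array. Because the RNA was taken in bulk, fewer cells with a transcript and less of it per cell cannot be told apart.

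**Figure D1:**
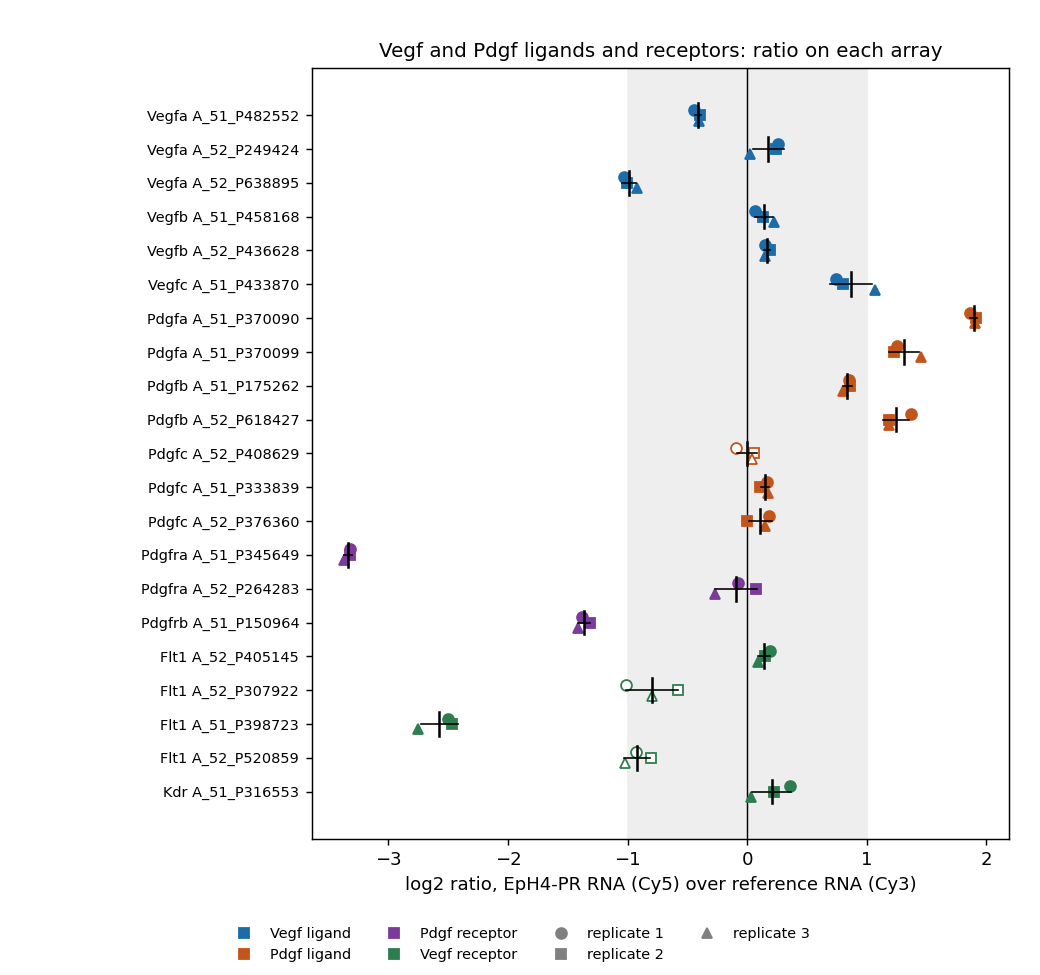
Log2 ratio of EpH4-PR RNA (Cy5) over reference RNA (Cy3) for the 21 probes on each of the 3 arrays, where the vertical line marks the mean, the horizontal line the SD over arrays, and open symbols the 3 probes that were not well above background in Cy5 on any array. The grey band spans log2 ratios of -1 to 1. Both Pdgfa probes lie to the right of it on every array, and Pdgfra A_51_P345649 and Flt1 A_51_P398723 lie far to its left.

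The 3 arrays agreed closely and each lay on a slide of its own. The Pearson correlation of the log2 ratios across all probes, which are not independent replicates, was 0.923 to 0.952 between pairs of arrays, and the SD over arrays of the 21 probes had a median of 0.08, against 0.09 for all probes. With 3 arrays, their number sets the limit on precision. The median Cy5 intensity was 93.8 to 113 and the median local background 42 to 43, while negative control spots read a median of 57.3 to 74.1 in Cy5 and 91.8 to 121 in Cy3, so a spot can exceed its local background and still be no brighter than a negative control. The epithelial label was checked against 10 probes of 9 epithelial genes, of which 9 were called higher, including Cdh1 (log2 ratio 4.29 ± 0.10) and Krt7 (3.99 ± 0.08), and 1, Krt19, was called lower (-2.62 ± 0.18). In Cy3 the Cdh1 probe exceeded the 95th percentile of the negative controls on only 1 array, so the size of its ratio rests on a reference signal near the floor. Both probes of Pgr, the gene of the progesterone receptor, were well above background in Cy5 on only 1 of the 3 arrays, and the sources do not say whether either lies within the transfected sequence.

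The starts of 3 genes at the ends of the range of ratios, as processed with loess, are printed here, since no probe or protein sequences were used here. They are the 250 bases before an annotated start in the RefSeq promoter table for GRCm38.p6, read 5′ to 3′ on the strand of the gene, and the capitals mark GGGCGG on either strand, the core of the GC box that Sp1 binds. Pdgfa holds the highest ratio (chr5:138994945-138995194, minus strand), Flt1 the probe with the lowest ratio among the Vegf receptors (chr5:147726012-147726261, minus strand), and Pdgfra the lowest ratio of all (chr5:75152001-75152250, plus strand). These ends are those of loess with a background offset of 50. With the scanner software's ratio Pdgfb held the highest ratio, and with that ratio or an offset of 0 Flt1 held the lowest.
Pdgfa: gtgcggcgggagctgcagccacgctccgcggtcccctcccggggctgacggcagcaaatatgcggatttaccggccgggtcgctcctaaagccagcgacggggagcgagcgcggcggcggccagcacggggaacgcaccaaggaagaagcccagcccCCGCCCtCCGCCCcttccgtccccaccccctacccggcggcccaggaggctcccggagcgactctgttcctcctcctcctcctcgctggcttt
Flt1: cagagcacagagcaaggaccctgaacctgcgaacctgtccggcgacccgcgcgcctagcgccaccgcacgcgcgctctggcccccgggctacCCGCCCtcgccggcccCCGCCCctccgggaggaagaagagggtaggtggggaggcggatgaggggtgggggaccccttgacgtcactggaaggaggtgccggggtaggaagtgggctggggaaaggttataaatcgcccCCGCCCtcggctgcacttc
Pdgfra: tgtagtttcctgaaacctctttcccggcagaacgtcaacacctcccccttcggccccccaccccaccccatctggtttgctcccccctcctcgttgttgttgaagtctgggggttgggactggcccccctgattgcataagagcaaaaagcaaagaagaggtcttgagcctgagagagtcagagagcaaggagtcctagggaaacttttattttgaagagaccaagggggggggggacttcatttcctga
The Pdgfa start shown holds 2 GC boxes in a GC content of 72.4%, the Flt1 start 3 in 70.4%, and the Pdgfra start 0 in 54.4%. Pdgfa and Vegfa each have a further annotated start in the table. For 8 of the 10 genes the table gave 10 starts, and GGGCGG stood in 8 of these, against 32.7% of 32851 starts of all genes. The share has to be read with base composition, because the starts of these genes had a GC content of 50.8% to 76.4% and the median over all starts was 52.4%. TGTTCT, the half-site of a progesterone response element, stood in 0 of the 10 starts against 16.1% of all starts, which says only that these letters are not in these windows. GCGTG, a core of the hypoxia response element, stood in 5 of 10 against 28.2%, and its other form ACGTG in 1 of 10, a Vegfa start, against 16.6%. For Vegfa, both forms stood only in the start at chr17:46025164-46025413 on the minus strand. That window lies downstream of the other Vegfa start (chr17:46032378-46032627), which held neither form. TATAAA stood in 1 of 10, the Flt1 start, against 12.4% of all. Both strands were searched for each motif. A match describes the sequence and is not a binding site. Pdgfra and Kdr are neighbours on the same chromosome with only Kit, another receptor tyrosine kinase gene, as a protein-coding gene between them.

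Vegfa, the main ligand for blood vessel growth, had 3 probes, and none was called. Probe A_51_P482552 read 1081, 1056 and 1079 in Cy5 and 606, 586 and 570 in Cy3 on replicates 1, 2 and 3, and its log2 ratio after normalization was -0.44, -0.39 and -0.40 (mean -0.41 ± 0.03, SD, n = 3; adjusted p = 0.00108 by limma). It was thus brighter in Cy5 as scanned on every array but below the loess curve of spots of its brightness on every array. Probe A_52_P638895 had log2 ratios of -1.03, -1.003 and -0.92 (mean -0.98 ± 0.06, adjusted p = 8.43e-05 by limma), just short of the limit of 1. With replicate 3 left out it passed, at -1.02. The remaining probe, A_52_P249424, lay on the other side of 0, at 0.26, 0.24 and 0.03 (mean 0.18 ± 0.13, adjusted p = 0.0703 by limma). No array placed it below either of the other Vegfa probes. Under median centring in place of loess, all 3 Vegfa probes lay above 0, so the direction for Vegfa changed with the normalization.

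Vegfb, a ligand of Flt1, gave similar ratios with both of its probes after loess. Probe A_51_P458168, with 2487, 2590 and 2820 in Cy5 and 877, 893 and 879 in Cy3, had log2 ratios of 0.07, 0.13 and 0.22 (mean 0.14 ± 0.08, adjusted p = 0.0680 by limma). Probe A_52_P436628 had 0.15, 0.19 and 0.15 (mean 0.16 ± 0.03, adjusted p = 0.0265 by limma). All 6 values lay above 0 and the ranges of the probes overlapped, with a difference of -0.02 ± 0.09. Under median centring both were called higher, at 1.48 and 1.15, with a gap of 0.33 ± 0.05 and no overlap. Vegfc, the lymphatic ligand of Flt4, had 1 probe (A_51_P433870), with 853, 751 and 908 in Cy5 and 268, 239 and 209 in Cy3. Its log2 ratios of 0.74, 0.80 and 1.07 (mean 0.87 ± 0.18, adjusted p = 0.000627 by limma) were above 0 on each array, but only replicate 3 exceeded 1 and the probe was not called. It was the Vegf ligand with the highest ratio, and it passed the limit with normexp offset 0 (1.01), with the scanner software's own ratio (1.16) and under median centring (1.91).

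Pdgfa, which encodes the A chain of Pdgf, had the highest ratio of the 10 genes after loess, though not with the scanner software's ratio, and both of its probes were called higher. Probe A_51_P370090 read 11265, 9845 and 11118 in Cy5 against 1060, 934 and 1021 in Cy3, and its log2 ratio was 1.86, 1.92 and 1.90 (mean 1.89 ± 0.03, SD, n = 3; 3.71-fold; adjusted p = 1.91e-05 by limma). Probe A_51_P370099 read 1097, 1074 and 1072 in Cy5 against 242, 242 and 190 in Cy3, for log2 ratios of 1.25, 1.23 and 1.45 (mean 1.31 ± 0.12; 2.48-fold; adjusted p = 8.23e-05 by limma). Every array gave the first probe the higher ratio, by 0.58 ± 0.12, although with the scanner software's ratio this gap was 0.20 ± 0.12. Both probes were called higher under all 14 alternative settings, over which they ranged from 1.85 to 3.33 and from 1.22 to 2.38.

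Pdgfb, the B chain, which binds both Pdgf receptors, also lay above the reference with both probes. Probe A_52_P618427 read 538, 448 and 473 in Cy5 and 156, 152 and 129 in Cy3, with log2 ratios of 1.37, 1.18 and 1.18 (mean 1.24 ± 0.11; 2.37-fold; adjusted p = 7.80e-05 by limma), and was called higher under all 14 alternatives, at 1.05 to 2.11. Probe A_51_P175262 was dimmer, with 173, 180 and 159 in Cy5 and 123, 121 and 91.2 in Cy3, and its log2 ratios of 0.85, 0.86 and 0.80 (mean 0.84 ± 0.04, adjusted p = 0.000108 by limma) were not called. In Cy3 its spots did not exceed the 95th percentile of the negative controls on any array, and those of the first probe did so on 1 array, so the reference level behind both ratios was near the floor of the channel. Without the offset of 50 that the background correction adds, the dim probe had a ratio of 1.89, and with the scanner software's ratio 2.22.

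Pdgfc, a ligand that is cut outside the cell before it can bind, lay near the reference after loess. Probe A_51_P333839 had log2 ratios of 0.17, 0.11 and 0.17 (mean 0.15 ± 0.04, adjusted p = 0.0373 by limma) and probe A_52_P376360 had 0.18, 0.00 and 0.15 (mean 0.11 ± 0.10, adjusted p = 0.145 by limma). Their Cy5 intensities were 464, 411 and 440 and 399, 367 and 381, all over the negative controls. Median centring moved them to 1.05, which was called higher, and 0.96. The other Pdgfc probe, A_52_P408629, was not well above background in either channel on any array and gives no ratio that can be read. It was designed on a cDNA clone rather than on the reference transcript.

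Both Pdgf receptors had a probe that was called lower, but the probes of Pdgfra disagreed. Pdgfra encodes the alpha receptor, which binds the A, B and C chains, and its probe A_51_P345649 read only 187, 168 and 175 in Cy5 against 837, 768 and 809 in Cy3. The log2 ratios were -3.32, -3.32 and -3.37 (mean -3.34 ± 0.03, SD, n = 3; 10.1-fold lower; adjusted p = 1.16e-05 by limma), and the probe was called lower under all 14 alternatives, at -4.00 to -2.34. It was nonetheless well above background in Cy5 on every array, and over the 95th percentile of the negative controls on every array. The other Pdgfra probe, A_52_P264283, carries the same transcript accession but read 83.6, 96.3 and 76.4 in Cy5 and 125, 128 and 110 in Cy3, which exceeded the negative controls on 2 arrays in Cy5 and on 1 in Cy3. Its log2 ratios of -0.08, 0.07 and -0.27 (mean -0.09 ± 0.17, adjusted p = 0.347 by limma) straddled 0. The gap between the probes was -3.24 ± 0.14, the widest within any of these genes with this processing, and the dim probe measured little in either RNA.

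Pdgfrb encodes the beta receptor, the mark of mural cells, and had 1 probe (A_51_P150964). It read 310, 281 and 299 in Cy5 and 410, 368 and 378 in Cy3, with log2 ratios of -1.38, -1.31 and -1.41 (mean -1.37 ± 0.05; 2.58-fold lower; adjusted p = 3.56e-05 by limma). All 3 arrays lay below -1 and the probe was over the negative controls in both channels on each. Under median centring the ratio was -0.42 and the call was lost, although it stayed below 0. Of 26 probes of 12 fibroblast and mural marker genes, 0 were called higher and 12 lower, with a median log2 ratio of -0.70. Their Cy5 intensities as scanned, with the background left in, summed to 11393 to 12384 over the list. The lowest were a probe each of Col3a1 (-5.10 ± 0.10), Col1a1 (-5.03 ± 0.12) and Col1a2 (-4.29 ± 0.13), collagen genes of stromal cells. Other probes of Col3a1 (-0.23 and -0.14, not called) and Col1a1 (-2.16, called lower, and -0.26, not called) lay nearer the reference. The brightest in Cy5 was a probe of Acta2, a smooth muscle actin, at 6037 to 6353, with a log2 ratio of 0.60 ± 0.11. Another probe counted under Acta2, listed as 0610041G09Rik on the array, was lower at -2.80 ± 0.06. The remaining Acta2 probes were at -2.01 (called lower, above background in Cy5 on 1 array) and at -0.16 and -0.001 (not called). The 3 lowest collagen probes were above background in Cy5 on all arrays, while 4 of the 26 probes were above it on none. The part of such cells in the reference RNA in the ratios of Pdgfra and Pdgfrb was not tested.

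Flt1, which encodes Vegf receptor 1, had 4 probes with a wide spread of ratios. Probe A_51_P398723 read 95.9, 96.5 and 74.8 in Cy5 against 349, 337 and 314 in Cy3, and its log2 ratios were -2.50, -2.47 and -2.75 (mean -2.57 ± 0.16; 5.95-fold lower; adjusted p = 2.59e-05 by limma). In Cy5 the probe was only a little over the 95th percentile of the negative controls, which was 85.9, 87.4 and 62.9. The size of its ratio thus rests on a Cy5 signal near the floor. The probe was called lower under all 14 alternatives. Its ratio ranged from -2.05 with median centring to -3.98 with normexp offset 0 and -4.25 with the scanner software's ratio. Probe A_52_P520859 read 80.0, 80.6 and 63.3 in Cy5, not well above background on any array, and 171, 160 and 138 in Cy3. Its log2 ratio of -0.92 ± 0.11 (1.89-fold lower, adjusted p = 0.00019 by limma) thus rests on an undetected Cy5 signal. The size varied with the processing, from -0.70 with no background subtraction to -2.93 with the scanner software's ratio.

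Another Flt1 probe, A_52_P307922, was designed on an mRNA of the soluble form, which holds ligand outside the cell without signalling. It was likewise not well above background in Cy5 on any array, at 83.3, 73.4 and 65.4, and read 181, 141 and 127 in Cy3. Its log2 ratios were -1.01, -0.58 and -0.79 (mean -0.79 ± 0.22, 1.735-fold lower, adjusted p = 0.00158 by limma). They too rest on an undetected Cy5 signal, and the mean ranged from -0.60 with no background subtraction to -2.65 with the scanner software's ratio. The last Flt1 probe, A_52_P405145, from a placental cDNA clone, stood on the other side of 0 with 0.19, 0.15 and 0.09 (mean 0.14 ± 0.05, adjusted p = 0.0484 by limma). In Cy3 this probe did not exceed the 95th percentile of the negative controls on any array, at 119, 133 and 103. It lay 2.72 ± 0.11 above A_51_P398723, a gap seen on every array.

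Kdr, which encodes Vegf receptor 2, the main signalling receptor for Vegfa, had 1 probe (A_51_P316553) of low signal. It read 92.5, 97.1 and 86.1 in Cy5 and 114, 122 and 102 in Cy3, for log2 ratios of 0.36, 0.23 and 0.03 (mean 0.21 ± 0.16, adjusted p = 0.0668 by limma). In Cy3 it was well above background on 2 of 3 arrays and over the negative controls on 0, so the ratio sets a low signal against one at the floor. Among 13 probes of 10 endothelial marker genes, 0 were called in either direction, the median log2 ratio was -0.08, and 5 were above background in Cy5 on all arrays and 5 on none. Cdh5 (both probes), Tek and Tie1 were above background in Cy5 on no array, and Pecam1 and Emcn on 1 array each. Eng, at 175 to 201 in Cy5, Esam, Cldn5, Robo4 and 1 of 3 Vwf probes were above it, and over the negative controls, on all arrays. With the scanner software's ratio 2 of the 13 probes were called lower. The Cy5 intensities of the 13 probes summed to 1021 to 1274 as scanned. That sum still holds the background, and a single negative control spot read a median of 57.3 to 74.1.

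**Figure D2:**
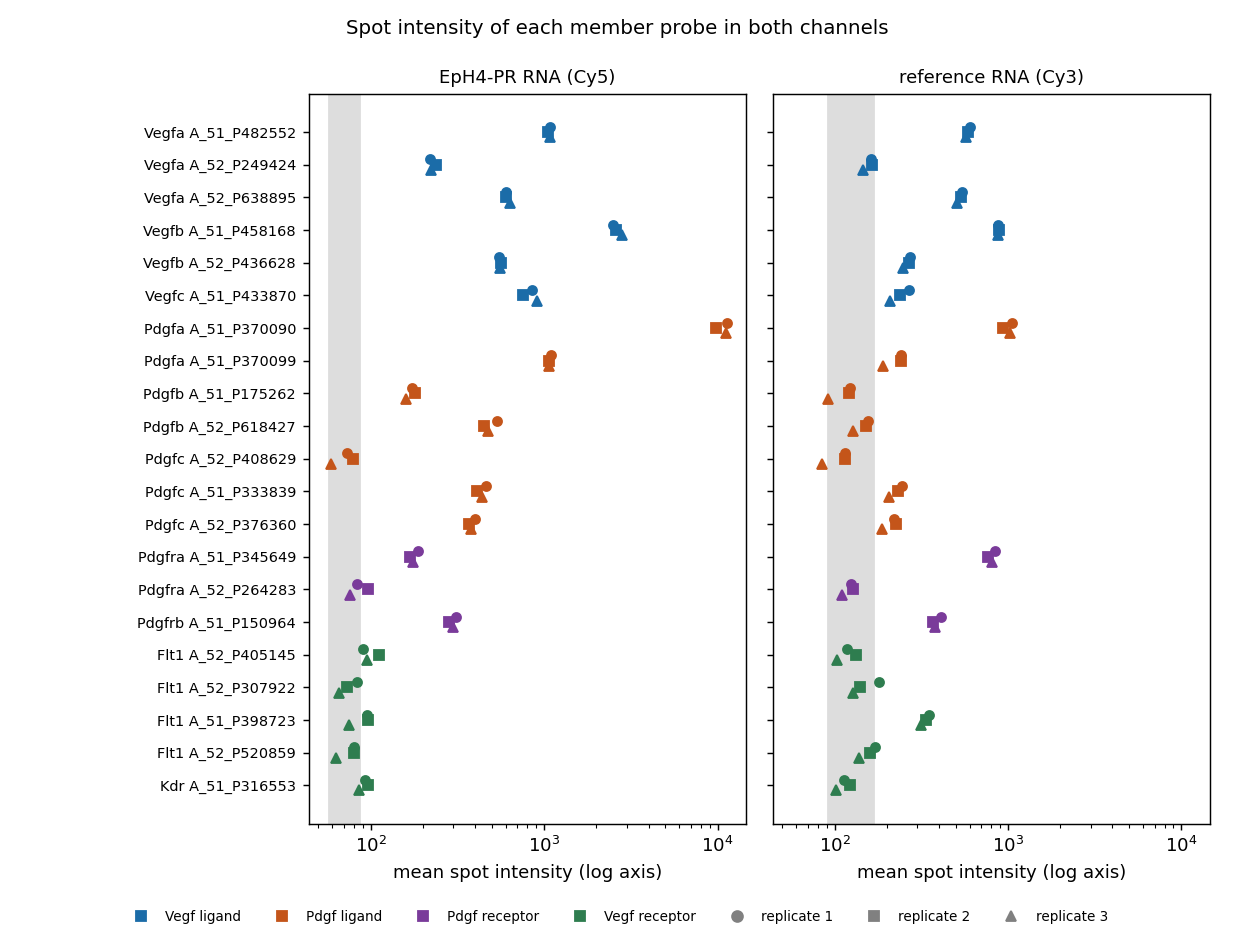
Mean spot intensity as scanned, on a log axis, of the 21 probes in Cy5 (EpH4-PR RNA, left) and Cy3 (reference RNA, right) on each array, where the grey band spans the lowest median to the highest 95th percentile of negative control spots over the arrays. Pdgfa A_51_P370090 read 9845 to 11265 in Cy5, while the Kdr probe and the 4 Flt1 probes lay in or near the Cy5 band.

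In Cy5, 12 of the 13 ligand probes and 6 of the 8 receptor probes were well above local background on all 3 arrays, or 18 of 21 in all. Against the 95th percentile of the negative controls the count was 17 of 21 in Cy5, and 12 of 21 in both channels on all arrays. No spot of these probes was saturated or marked as an outlier.

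Over the arrays the order of the ratios was clear at its ends and not in its middle, but the ends changed with the processing. Among the 20 probes that could be ranked, 19 pairs stood next to each other, and in 11 of these the ranges over arrays overlapped. Pdgfa A_51_P370090 stood above all others and was followed by its second probe and Pdgfb A_52_P618427, which overlapped each other. Vegfc and Pdgfb A_51_P175262 came next and overlapped. From Kdr at 0.21 down to Pdgfra A_52_P264283 at -0.09, 8 probes of 6 genes overlapped each with the next. At the lower end Pdgfrb, Flt1 A_51_P398723 and Pdgfra A_51_P345649 stood apart, in that order, on all 3 arrays. With the scanner software's ratio, both Pdgfb probes (2.22 and 2.11) stood above both Pdgfa probes (1.95 and 1.75). Flt1 A_51_P398723 stood below Pdgfra A_51_P345649 with that ratio (-4.25 against -4.00) and with normexp offset 0 (-3.98 against -3.96). These are ratios to the same reference RNA and say nothing of which transcript was the more abundant.

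**Figure D3:**
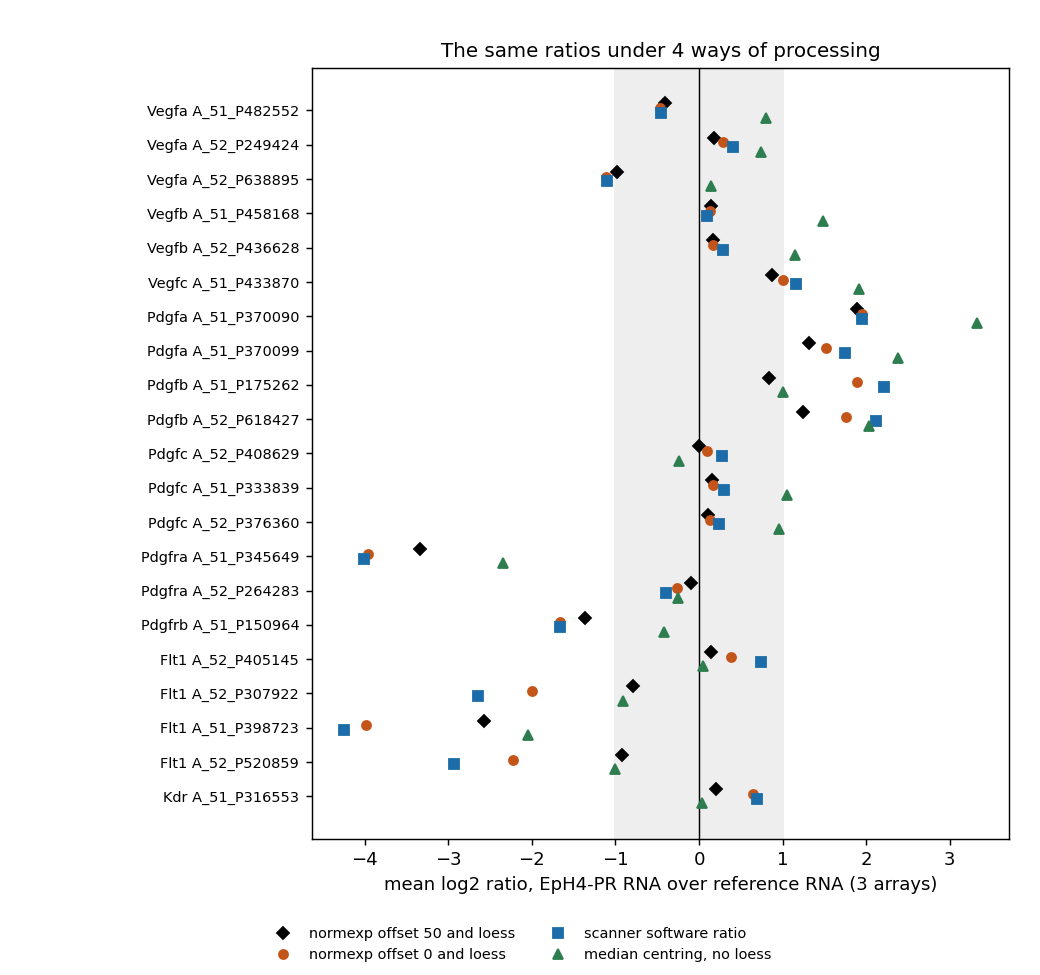
Mean log2 ratio over 3 arrays of the 21 probes under 4 ways of processing the same spots, where the grey band spans -1 to 1. Both Pdgfa probes and Pdgfb A_52_P618427 stay above 1, and Pdgfra A_51_P345649 and Flt1 A_51_P398723 below -1, under each, while median centring moves Vegfa A_51_P482552 from -0.41 to 0.81.

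The counts of calls depended on the processing. Of all calls on the arrays 37.1% were higher with loess, 90.9% with median centring, 48.2% with the scanner software's ratio and 44.5% with normexp offset 0. Among the 21 probes the calls went from 3 higher and 3 lower to 8 higher and 3 lower with median centring, and to 5 higher and 6 lower with the scanner software's ratio. With median centring Pdgfrb was lost from the lower calls and Flt1 A_52_P520859 was gained, at -1.003. The lower calls gained with the scanner software's ratio were Vegfa A_52_P638895 and the dim Flt1 probes A_52_P307922 and A_52_P520859. The median log2 ratio of the 21 probes was 0.14 with loess and 0.74 with median centring.

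Among the other genes of the families, only Vegfd had a called probe after loess, while the scanner software's ratio and median centring each gave 1 probe called higher. Of 12 probes of 7 such genes, 0 were called higher and 1 lower, with a median of 0.00. Vegfd, a lymphatic ligand listed as Figf on the array, had log2 ratios of -2.12, -2.01 and -2.31 (mean -2.14 ± 0.15, adjusted p = 3.41e-05 by limma). Pgf, a ligand of Flt1, was at 0.07 ± 0.07, and Pdgfd, a ligand of the beta receptor, at 0.04 ± 0.05 and, over the 2 arrays with a usable spot, 0.08 ± 0.03. Flt4, the receptor for Vegfc and Vegfd, was at -0.28 ± 0.24. The co-receptor Nrp1 had -0.17 ± 0.06, -0.09 ± 0.08 and 0.16 ± 0.17 with 3 probes, and Nrp2 had 0.07 ± 0.02 and 0.23 ± 0.06. Pdgfrl, a receptor-like gene, had -0.88 ± 0.07 and -0.03 ± 0.09.

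Genes that process or bind the ligands were mixed. Of 13 probes for 6 genes of ligand maturation and release, 0 were called higher and 2 lower, with a median of -0.03, and both were of Plat (-1.75 ± 0.09 and -1.12 ± 0.06), the plasminogen activator that can cut Pdgfc. Under median centring both calls were lost, and the list had 2 higher and 0 lower. Of 13 probes for 7 genes of extracellular binders and inhibitors, 2 were called higher and 3 lower, with a median of 0.08, and under median centring 5 were higher and 1 lower. Thbs1, a matrix protein that limits vessel growth, was higher with 2 of its 4 probes (1.09 ± 0.06 and 1.05 ± 0.16). Sparc, a matrix protein that binds Pdgf, was lower with both (-2.10 ± 0.08 and -1.59 ± 0.10), as was Thbs2 (-1.90 ± 0.12).

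Targets of the hypoxia response, of which Vegfa is a known one, lay mostly below the reference. Of 8 probes for 7 other hypoxia targets, 0 were called higher and 7 lower, with a median of -1.85, and the lowest were Ndrg1 (-3.89 ± 0.07), Bnip3 (-2.98 ± 0.05) and Pdk1 (-2.16 ± 0.04). Under median centring only 3 of the 8 were called lower and the median was -0.92. The 8 genes of the hypoxia axis itself had 14 probes, of which 0 were called higher and 3 lower, with a median of 0.01. Under median centring 1 was higher and 1 lower. The 3 lower after loess were Egln3 (-2.57 ± 0.17), an oxygen sensor, and the transcription factor subunits Arnt (-1.46 ± 0.03, 1 of 4 probes) and Hif1a (-1.04 ± 0.03).

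Downstream of the receptors, 41 probes of 20 signalling genes held 4 called higher and 4 lower, with a median of 0.14. Median centring gave 17 higher and 1 lower with a median of 0.70, and the scanner software's ratio 9 higher and 4 lower. The highest were Ptpn11 (1.97 ± 0.12, 1 of 3 probes), a phosphatase that binds Pdgf receptors, and Hras (1.44 ± 0.05). The lowest was a probe of Pik3r1 (-3.35 ± 0.08), the regulatory subunit of phosphoinositide 3-kinase. The other Pik3r1 probes disagreed with it and with each other, at -1.14 ± 0.19 (called lower), 1.04 ± 0.03 (called higher) and 0.96 ± 0.09.

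**Figure D4:**
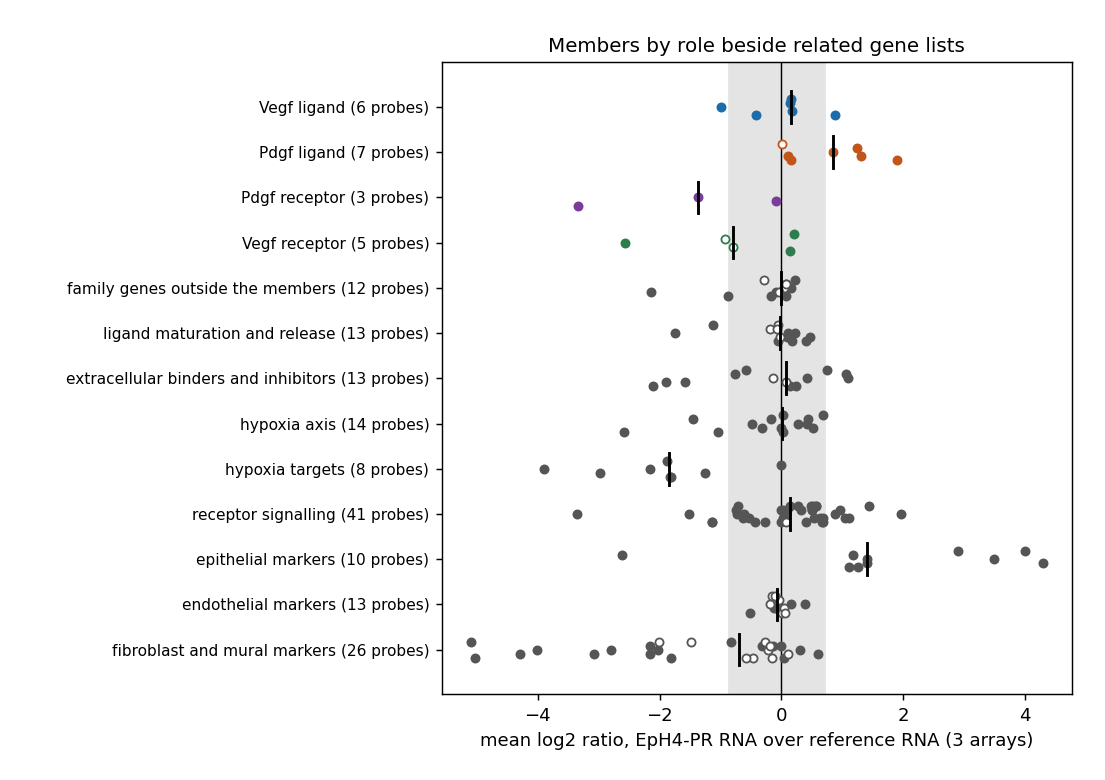
Mean log2 ratio over 3 arrays of each probe of the Vegf and Pdgf ligands and receptors, by role, and of 9 related gene lists, where the thick line marks a list's median, open circles mark probes not well above background in Cy5 on all arrays, and the grey band spans the 5th to the 95th percentile of all probes. The Pdgf ligands have a median of 0.84, with the 3 Pdgfc probes near the reference. The Pdgf receptors have a median of -1.37, with Pdgfra A_52_P264283 near the reference, and the hypoxia targets have a median of -1.85.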

How the data were processed

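Each of 3 Agilent arrays of 2 colours held RNA of EpH4-PR cells in Cy5 and a common reference RNA in Cy3. The authors deposited the output of Agilent Feature Extraction 8.1.1.1 for each array, with the mean, median and local background intensity of every spot in both channels, a log10 ratio of Cy5 over Cy3 and flags for background, saturation and outliers. Per the file headers the log10 ratio was computed by the scanner software, and it was turned to log2 for an alternative. A table of fold changes, ratios and p-values between groups that it does not name was also deposited by the authors and was not used here. A genome build is not given in the sources used here.

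Mean intensities of 43790 spots were background corrected with normexp (offset 50), normalized within arrays by loess with control spots at weight 0 and outlier spots left out, and averaged by probe, giving 41174 probes. Different probes of a gene were not combined. Each probe's log2 ratio was tested against 0 with lmFit and eBayes in limma 3.58.1 (R 4.3.3), with Benjamini-Hochberg adjustment over all probes. A call needed both an adjusted p under 0.05 and an absolute log2 ratio of 1 or more. The limma test and the calls were tried on simulated log2 ratios, which did not cover the background correction or loess. Summaries, the motif search and figures were made in Python 3.11.15. The number of arrays limits the precision.

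Named were all 21 probes, all family genes outside them, and in each list the 3 highest and 3 lowest called probes above background in both channels, together with cell type markers, except that some probes the rule named are not reported here. The members and lists were chosen with earlier results of these data known. Of the 21 probes, 18 carry a RefSeq accession, and all 18 matched the same symbol in the RefSeq gene table for GRCm38.p6. Alternatives covered the background correction, the scanner software's ratio, median centring, the median spot intensity, Aquantile, leaving out dim probes, keeping outlier spots, leaving out each array, a variance trend with intensity and the methods' t-test. Detection over the 95th percentile of the 314 negative control spots was added after seeing the data.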

Additional observations from a re-analysis of the deposited data

How the results depend on the processing

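Of the 21 probe ratios, 18 kept their direction under every alternative that gave a value, up to 14, and 9 changed their call under at least 1. Some of these alternatives, named below, cannot change a ratio. Both Pdgfa probes, Pdgfb A_52_P618427, Pdgfra A_51_P345649 and Flt1 A_51_P398723 were called in the same direction under each. With 1 array left out, member calls were 3 higher and 3 to 4 lower, and calls over all probes were 933 to 953 higher and 1585 to 1605 lower. Median centring in place of loess turned Vegfa A_51_P482552 to 0.81, Vegfa A_52_P638895 to 0.15, and the undetected Pdgfc A_52_P408629 to -0.24. It also turned the gap between Vegfa A_51_P482552 and A_52_P249424 to 0.0697. The Pdgfc probe turned to -0.000635 with the median spot intensity and ranged from -0.0269 to 0.0503 with 1 array left out. The gap between the Pdgfb probes turned to 0.10 with the scanner software's ratio. Member calls were 5 higher and 6 lower with normexp offset 0, 5 higher and 6 lower with the scanner software's ratio, and 8 higher with median centring. Over all probes, normexp offset 0 gave 3125 higher and 3905 lower, the scanner software's ratio 3616 and 3887, and median centring 7031 and 708. Over the probes of all lists, 15 calls were higher, against 23, 27 and 36 under these 3 settings in turn, and 33 were lower, against 19 with median centring. The cause was not tested. The methods' t-test, with the limit of 1 on the log2 ratio kept, gave the same call for all 21 probes. This held at its own threshold and after Benjamini-Hochberg adjustment. The paper describes its t-test as one between groups and states no limit on the ratio. At that threshold without the ratio limit, further probes would have passed, among them Vegfa A_51_P482552, Vegfa A_52_P638895, Vegfb A_52_P436628 and Pdgfb A_51_P175262. The same calls for these probes thus rest on the kept limit. Aquantile, which sets only the average brightness equal between arrays, moves no ratio by construction. Nor do the variance trend, the methods' t-test in both its forms or leaving out dim probes, which change only the p-values or the probes tested. Under all of these a kept direction was fixed in advance. No paired analysis was possible because the arrays form 1 group and each carries the same reference RNA.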

Other observations

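A pair of further probes on the arrays is described as a product of these receptor genes but carries a clone accession in place of a gene name, and was looked at after the values were seen. The probe AK054510, described as Kdr and taken from an ovary cDNA library, read 68.7, 73.6 and 56.3 in Cy5 and was not well above background in either channel on any array. The probe AK084177, described as Flt1 and taken from an embryonic eyeball library, read 78.0, 78.2 and 66.2 in Cy5, which was not well above background on any array, and was above it on 2 arrays in Cy3. Its log2 ratio was -0.12 ± 0.06 (SD, n = 3; adjusted p = 0.0778 by limma with Benjamini-Hochberg adjustment).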
